A study of Mus musculus with 16 samples.

Results

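RNA of denervated muscle fibers isolated from the extensor digitorum longus (EDL) was compared with RNA of the denervated whole tibialis anterior (TA), 4 libraries against 4, which is 8 of the 16 libraries of the series. Both groups were chosen by their labels alone: DEN fibers (muscle fibers, EDL, DEN) and DEN whole muscle (whole muscle, TA, DEN). All mice were young C57BL/6 J males, and tissue was taken 21 days after unilateral surgery. In DEN surgery the sciatic nerve was transected and a piece of it removed, whereas the sham operation left the nerve uncut. Fibers were released from the EDL with collagenase, and single fibers that had not contracted were placed directly in lysis reagent. The whole TA was not digested. The muscle of origin, the enzyme step and the cells that remain in the sample therefore differ together between these groups, and for none of the differences given here can they be told apart. The other 8 libraries, 4 of sham fibers and 4 of sham whole muscle, had the same preparations with an uncut nerve and are given only beside the DEN values. The study counts each fiber library as a separate animal, 4 per surgery group, and states that its replicates are different mice. The labels name no animal for a library and do not say whether EDL and TA came from the same mice. The p-values measure the spread between these samples, part of which may be technical.

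A skeletal muscle fiber is a single cell with many nuclei, packed with sarcomeres, and contacted by its motor axon at the neuromuscular junction. Whole muscle also holds capillaries and larger vessels, Schwann cells along the nerve, macrophages, fibro-adipogenic progenitors (connective tissue cells that make matrix and can become adipocytes), tendon cells, fat, blood, and the satellite cells that lie under the basal lamina of the fiber. After loss of the nerve, fibers shrink, spread acetylcholine receptors over their surface, and change their myosin heavy chains. EDL and TA are both fast muscles of the anterior compartment of the leg and both lose their motor input when the sciatic nerve is cut.

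Levels are given as RPM, the count of a gene scaled to a fixed total of each library, and the fold changes as log2 of DEN fibers over DEN whole muscle with their standard error from the edgeR fit. Of 16856 genes tested, 5088 (30.2%) were higher in DEN fibers and 4448 (26.4%) were lower at an adjusted p below 0.05. Thus 56.6% passed the test, and a count of called genes in any list has to be read against these shares. For 50.6% of the genes the RPM of the groups did not overlap (29.9% higher and 20.7% lower in DEN fibers). Many genes named below were picked from lists or from the largest changes on condition that the groups did not overlap. For these genes the lack of overlap follows from that choice and is no further result. Large differences were more often upward: 1858 of the higher genes but 377 of the lower genes reached a log2 fold change of 1 in size, and 535 against 63 reached 2. Over all 16856 genes the median was 0.01. Total counts per library ran from 49306627 to 62203139 in the 8 DEN libraries. Rank correlations of gene levels (Spearman, across genes, which are not independent replicates) were 0.992 to 0.995 among DEN fibers, 0.993 to 0.996 among DEN whole muscle and 0.963 to 0.9696 between the groups. Mitochondrially encoded genes took 9.17% to 10.2% of the counts in DEN fibers and 9.33% to 10.2% in DEN whole muscle.

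Both groups had the markers of skeletal muscle fibers at very high levels. Acta1, the skeletal muscle actin, had 24634, 26835, 25236 and 30036 RPM in DEN fibers, against 27583, 28017, 28226 and 29219 RPM in DEN whole muscle, and the groups overlapped (log2 fold change -0.12 ± 0.10, adjusted p = 0.30). Without DEN fibers 4 the Acta1 difference was -0.21 and passed the test (adjusted p = 0.040). Ckm, the muscle creatine kinase, ran from 8450 to 9940 RPM in DEN fibers, against 11211 to 12544 RPM in DEN whole muscle, and was lower in DEN fibers (log2 fold change -0.40, adjusted p = 0.0035).

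Differences also followed gene length. Length was taken as the ratio of the deposited RPM and RPKM implies it. In the fifth of genes with the greatest length (7010 to 123179 bases) the median log2 fold change was 0.39, with 59.9% of genes higher and 13.7% lower in DEN fibers, whereas in the fifth with the shortest (61 to 1707 bases) it was -0.06, with 14.2% higher and 23.5% lower. The same medians were 0.23 and 0.02 between sham fibers and sham whole muscle. The part of length in the other results was not tested beyond a fit, added after the data were seen, that takes out its trend, in which 4546 genes were higher and 4670 lower. Where it moved the log2 fold change of a called gene described here by over 1.5 times, its value is given beside that gene as the one with the length trend taken out. Malat1, a nuclear noncoding RNA, had 1954, 2124, 2590 and 1896 RPM in DEN fibers, against 442, 371, 393 and 364 RPM in DEN whole muscle, a gap between the groups without overlap (log2 fold change 2.40 ± 0.09, adjusted p = 5.2e-08). Neat1, the noncoding RNA that scaffolds paraspeckles in the nucleus, went the other way with 1054, 1136, 1436 and 857 RPM in DEN fibers, against 2146, 2066, 1923 and 1903 RPM in DEN whole muscle (log2 fold change -0.90 ± 0.11, adjusted p = 8.6e-05), and its difference was -1.72 with the length trend taken out. Malat1 and Neat1 were chosen after their values were seen. Their log2 fold changes between sham fibers and sham whole muscle were 2.60 and -1.80.

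Many of the largest differences lay in genes that cells switch on within minutes to hours of a stimulus. Of the 35 immediate early genes tested, which encode mostly transcription factors of the AP-1 and EGR families and feedback inhibitors, 33 were higher in DEN fibers and none lower (median log2 fold change 2.71, against 0.01 over all genes). Fos, a component of AP-1, had 706, 809, 854 and 627 RPM in DEN fibers, against 7.73, 3.52, 7.34 and 8.80 RPM in DEN whole muscle. All 4 fiber libraries were far above all 4 whole muscle libraries (log2 fold change 6.73 ± 0.27, adjusted p = 6.7e-08), which is a 106-fold difference. Fosb, its close relative, had 184, 165, 246 and 187 RPM in DEN fibers, against 0.587, 0.756, 2.65 and 0.487 RPM in DEN whole muscle (log2 fold change 7.40 ± 0.40, adjusted p = 3.4e-07). The groups did not overlap although DEN whole muscle 3 stood above the other whole muscle libraries. Egr1, a zinc finger transcription factor, had 653, 724, 703 and 568 RPM in DEN fibers, against 11.4, 7.68, 21.8 and 14.2 RPM in DEN whole muscle (log2 fold change 5.54 ± 0.30, adjusted p = 3.2e-07), again without overlap. Socs3, a feedback inhibitor of cytokine signalling, had 558, 608, 488 and 553 RPM in DEN fibers, against 6.23, 8.71, 8.53 and 33.1 RPM in DEN whole muscle (log2 fold change 5.25 ± 0.52, adjusted p = 1.8e-05). Here DEN whole muscle 4 was well above the other 3 whole muscle libraries and still far below the fibers. Junb, another AP-1 gene, was already at over 100 RPM in DEN whole muscle, with 882, 997, 905 and 804 RPM in DEN fibers, against 129, 106, 121 and 171 RPM in DEN whole muscle. Its groups did not overlap, with log2 fold change 2.72 ± 0.14, adjusted p = 2.9e-07. Atf3, a stress-induced partner of AP-1 proteins, averaged 305 ± 48.5 RPM in DEN fibers and 24.9 ± 7.31 RPM in DEN whole muscle (SD, n = 4 each) and was likewise higher in every fiber library, by 3.57 ± 0.23 on the log2 scale.

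Heat shock genes encode chaperones that refold damaged proteins. Of 22 tested, 13 were higher and 3 lower in DEN fibers (median 0.35). The inducible Hsp70 genes led the list. Hspa1a had 1798, 1740, 2291 and 1369 RPM in DEN fibers, against 16.7, 14.6, 15.8 and 18.9 RPM in DEN whole muscle (log2 fold change 6.72 ± 0.16, adjusted p = 7.2e-09). Hspa1b had 1775, 1697, 2269 and 1337 RPM in DEN fibers, against 12.1, 11.5, 12.2 and 16.4 RPM in DEN whole muscle (log2 fold change 7.03 ± 0.19, adjusted p = 1.0e-08). Neither pair of groups overlapped, and since Hspa1a and Hspa1b are near-identical copies, the division of reads between them is uncertain. Dnajb1, an Hsp40 co-chaperone of Hsp70, had 487, 499, 573 and 251 RPM in DEN fibers, against 9.63, 12.5, 10.4 and 12.1 RPM in DEN whole muscle (log2 fold change 5.28 ± 0.24, adjusted p = 1.3e-07), with DEN fibers 4 lowest among the fibers. Hsp90aa1, the inducible Hsp90, was also expressed in every whole muscle library, and averaged 332 ± 66.1 RPM in DEN fibers and 106 ± 2.45 RPM in DEN whole muscle (SD, n = 4 each), a log2 difference of 1.59 ± 0.11.

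Inflammatory cytokine genes were among those with the highest single folds. Of 31 genes tested, 22 were higher and 1 was lower in DEN fibers (median 2.48), and none was lower when DEN whole muscle 3 was left out. Csf3, the growth factor that drives neutrophil production, had 39.6, 8.56, 14.4 and 4.99 RPM in DEN fibers, against 0, 0, 0 and 0 RPM in DEN whole muscle. With 3581 summed counts in DEN fibers and 0 in DEN whole muscle, it was at least 1238-fold higher in DEN fibers when whole muscle is set to the floor of 3 summed counts of the group, and at least 701-fold higher without DEN fibers 1. The fiber libraries themselves differed widely, with DEN fibers 1 highest and DEN fibers 4 lowest. Cxcl2, a neutrophil chemokine, had 9.40, 11.6, 11.4 and 11.01 RPM in DEN fibers, against 0.0173, 0, 0.0373 and 0 RPM in DEN whole muscle, with 2341 against 3 summed counts, a ratio of 809 (exact 95% counting interval 277 to 3926) after scaling to the library totals (log2 fold change 9.39 ± 0.28, adjusted p = 1.5e-08). The counting interval of Cxcl2 rests on reads summed over each group and leaves out the spread between libraries. Cxcl1, the neighbour and relative of Cxcl2, had 44.1, 54.0, 47.6 and 32.02 RPM in DEN fibers, against 0.104, 0.209, 0.168 and 0.203 RPM in DEN whole muscle (log2 fold change 7.96 ± 0.22, adjusted p = 1.2e-08). Il6, a cytokine that muscle itself can secrete, had 84.3, 42.8, 44.7 and 40.6 RPM in DEN fibers, against 0.0863, 0.129, 0.168 and 0.101 RPM in DEN whole muscle (log2 fold change 8.71 ± 0.39, adjusted p = 1.2e-07). DEN fibers 1 was well above the other 3 fibers. In none of these genes did a whole muscle library reach a fiber library. Ptgs2, the inducible cyclooxygenase, had 50.02, 54.3, 55.7 and 44.9 RPM in DEN fibers, against 0.742, 0.9003, 0.540 and 0.771 RPM in DEN whole muscle (log2 fold change 6.06 ± 0.11, adjusted p = 1.7e-09), with little spread in either group.

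Among the largest rises of genes at 10 RPM or more were also genes that the endothelium uses to catch leukocytes. Sele (E-selectin) had 77.8, 30.1, 42.96 and 22.7 RPM in DEN fibers, against 0.0345, 0.209, 0.0931 and 0.142 RPM in DEN whole muscle (log2 fold change 8.41 ± 0.57, adjusted p = 1.5e-06). Selp (P-selectin) had 272, 82.7, 114 and 63.99 RPM in DEN fibers, against 2.05, 2.46, 1.53 and 3.08 RPM in DEN whole muscle (log2 fold change 5.82 ± 0.51, adjusted p = 8.3e-06). Both were highest in DEN fibers 1 and lowest in DEN fibers 4, and both groups stayed apart in both genes. Adamts4, a protease that cleaves aggrecan, had 226, 109, 127 and 150.03 RPM in DEN fibers, against 1.21, 2.07, 1.43 and 2.15 RPM in DEN whole muscle (log2 fold change 6.44 ± 0.30, adjusted p = 1.4e-07).

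The 150 bases before the start of 5 of these genes are shown. They are among the genes with the largest rises and were chosen after matches were seen in these bases to a short motif of a factor known to act on the class: NF-kB for chemokines and Il6, the heat shock element for Hsp70, and the core of the cAMP response element for Fos. Sequences are from RefSeq (GRCm38.p6), read 5′ to 3′ on the gene's strand and ending at the base before the start, with the motif match in capitals.
Cxcl1, chr5:90891095-90891244, plus strand: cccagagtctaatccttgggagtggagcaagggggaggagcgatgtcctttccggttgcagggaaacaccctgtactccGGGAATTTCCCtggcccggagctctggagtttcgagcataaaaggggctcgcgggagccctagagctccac
Cxcl2, chr5:90903749-90903898, plus strand: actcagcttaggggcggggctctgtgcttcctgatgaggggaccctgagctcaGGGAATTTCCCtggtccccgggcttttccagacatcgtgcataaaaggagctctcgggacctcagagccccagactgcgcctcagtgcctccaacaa
Il6, chr5:30012964-30013113, plus strand: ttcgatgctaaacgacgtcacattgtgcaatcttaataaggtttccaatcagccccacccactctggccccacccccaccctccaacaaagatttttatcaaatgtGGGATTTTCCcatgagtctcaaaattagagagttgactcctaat
Hspa1b, chr17:34959239-34959388, minus strand: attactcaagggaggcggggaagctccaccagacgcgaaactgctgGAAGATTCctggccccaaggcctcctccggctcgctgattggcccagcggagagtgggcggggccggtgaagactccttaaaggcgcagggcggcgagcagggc
Fos, chr12:85473740-85473889, plus strand: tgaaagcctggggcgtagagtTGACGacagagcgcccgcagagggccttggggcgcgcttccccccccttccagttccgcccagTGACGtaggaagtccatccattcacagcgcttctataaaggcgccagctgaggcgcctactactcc

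In Cxcl1 an NF-kB match of 10 letters lay 71 to 62 bases before the start, and in Cxcl2 the same letters lay 97 to 88 bases before it. Both overlap a second match, on the other strand and 1 base nearer the start, which is also in capitals. In Il6 the match lay 44 to 35 bases before the start. In Hspa1b a match to GAANNTTC lay 104 to 97 bases before the start, and in Fos the letters TGACG were found 129 to 125 and 66 to 62 bases before the start. Over the 250 bases before the start and on both strands, the NF-kB motif was present in 7.25% of 32851 RefSeq promoter windows and in 35.0% of 20 windows of cytokine genes (7 of 19 genes with a window). GAANNTTC was present in 12.8% of all windows and in 44.0% of 25 windows of heat shock genes (10 of 16 genes). TGACG was present in 17.8% of all windows and in 63.9% of 36 windows of immediate early genes (17 of 27 genes). The motifs were not limited to these classes. NF-kB was present in 16.7% of immediate early and 20% of heat shock windows, and TGACG in 44% of heat shock and 15% of cytokine windows. GAANNTTC was present in 11.1% of immediate early and 5% of cytokine windows. A match is a description of the letters and does not show that a factor was bound.

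**Figure D1:**
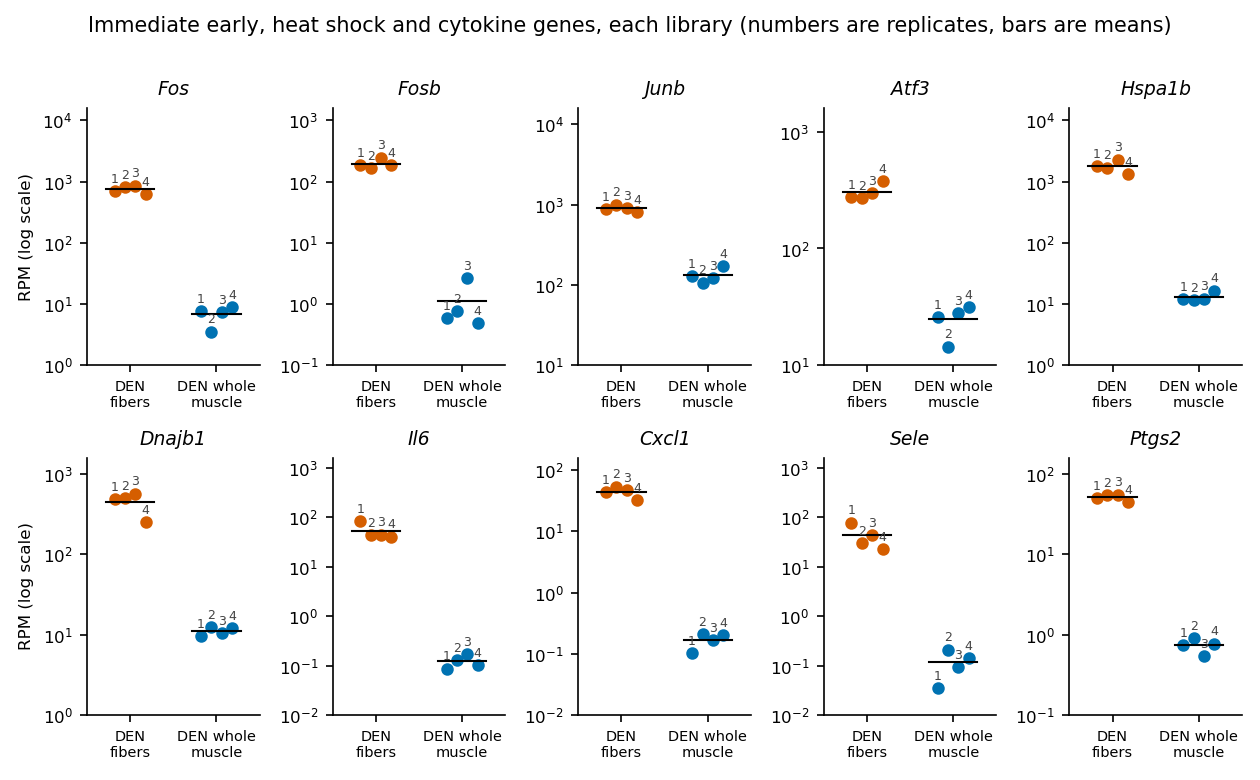
RPM of 10 immediate early, heat shock, cytokine and endothelial genes, each point 1 library with its replicate number, on log axes, with lines at the group means and DEN fibers left of DEN whole muscle. The 4 fiber libraries lie above the 4 whole muscle libraries for every gene drawn, as in Il6 (40.6 to 84.3 RPM in DEN fibers, against 0.0863 to 0.168 RPM in DEN whole muscle).

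These genes were also higher in sham fibers than in sham whole muscle. Over all genes 25.5% were higher and 23.2% lower in sham fibers, and the interaction, which tests whether the difference between the preparations differs between DEN and sham, was positive for 7.09% and negative for 11.8%. Of the immediate early genes, 34 were higher and 1 lower in sham fibers (median 4.04), and the interaction was negative in 19 of them and positive in 1. For Junb the log2 fold change of fibers over whole muscle was 2.72 after DEN and 6.98 after sham (interaction -4.31, adjusted p = 5.2e-08), and for Atf3 it was 3.57 and 7.41 (interaction -3.88, adjusted p = 6.4e-06). For Fos the fold changes were 6.73 and 7.39, and the interaction did not pass the test (adjusted p = 0.46). In the heat shock list 18 genes were higher and 1 lower in sham fibers, and 16 had a negative interaction. The cytokine list had 20 of 26 higher and 4 lower in sham fibers, with 3 positive interactions and 1 negative. For Cxcl1 the values were 7.96 after DEN and 7.94 after sham. Cxcl10, an interferon-induced chemokine, had the most negative interaction of the genes named: it averaged 16.9 ± 2.45 RPM in DEN fibers and 4.80 ± 0.777 RPM in DEN whole muscle (SD, n = 4 each), against 19.2 (sham fibers) and 0.0565 RPM (sham whole muscle). Its log2 fold changes were 1.78 after DEN and 8.33 after sham (interaction -6.602, adjusted p = 1.5e-05).

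Genes of metal binding and oxidative stress were mixed, with 4 of 17 higher and 6 lower. These are 23.5% and 35.3%, against 30.2% and 26.4% over all genes. The members that rose did so by much. Mt1 and Mt2 encode metallothioneins, which bind zinc and copper. Mt1 had 275, 265, 218 and 233 RPM in DEN fibers, against 28.3, 24.1, 61.3 and 94.6 RPM in DEN whole muscle (log2 fold change 2.205 ± 0.39, adjusted p = 0.00084). Mt2 averaged 243 ± 26.7 RPM in DEN fibers and 54.0 ± 33.8 RPM in DEN whole muscle (SD, n = 4 each; log2 fold change 2.13 ± 0.39, adjusted p = 0.0011). In both, DEN whole muscle 3 and 4 were above DEN whole muscle 1 and 2, yet below all fibers. Hmox1, the inducible heme oxygenase, had 103, 82.3, 83.4 and 60.7 RPM in DEN fibers, against 13.8, 16.4, 16.8 and 14.9 RPM in DEN whole muscle (log2 fold change 2.36 ± 0.14, adjusted p = 6.1e-07). All 3 differences were smaller than between the sham groups, where they were 5.36 for Mt1, 6.33 for Mt2 and 4.45 for Hmox1 (interactions -3.21, -4.25 and -2.14, adjusted p = 0.00027, 8.7e-05 and 6.2e-05). Gclm, a subunit of the enzyme that starts glutathione synthesis, was slightly lower in DEN fibers (-0.34 ± 0.04 on the log2 scale).

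**Figure D2:**
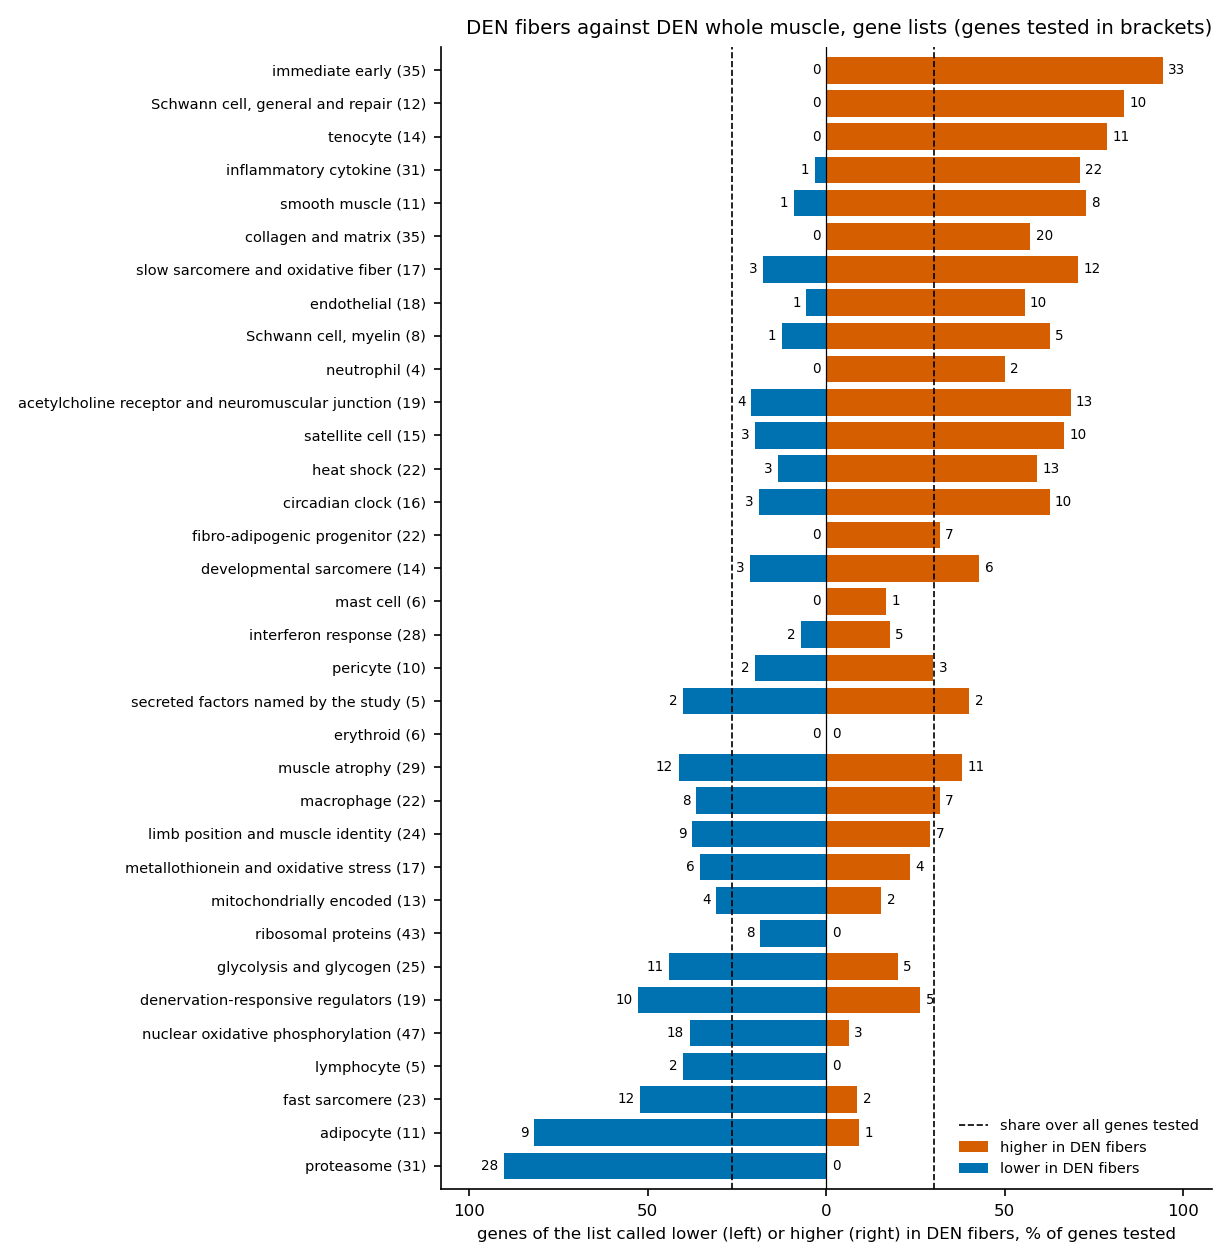
Percent of the tested genes of each of the 34 lists that were higher (right of 0) or lower (left of 0) in DEN fibers than in DEN whole muscle, with the number of genes at each bar and dashed lines at the shares over all 16856 genes (30.2% higher, 26.4% lower). Immediate early genes (33 of 35) reach farthest to the right and proteasome subunits (28 of 31) farthest to the left.

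DEN fibers were not free of RNA from cells outside the fiber, and for several cell types the markers were higher in fibers than in whole muscle. In bulk samples such as these, fewer cells of a type and less RNA per cell cannot be told apart. The part of these cells in the results on other genes was not tested. Of 18 endothelial genes 10 were higher and 1 lower in DEN fibers (median 0.29). The lower genes numbered 2 without DEN whole muscle 4 or DEN fibers 3, and 3 with DESeq2 or with the replicate number as a block. Pecam1, an adhesion molecule of endothelial junctions, had 133, 83.8, 137 and 107 RPM in DEN fibers, against 71.0, 73.7, 68.7 and 60.7 RPM in DEN whole muscle (log2 fold change 0.70 ± 0.13, adjusted p = 0.0010). Vwf, the clotting factor that endothelial cells store, had 184, 45.7, 139 and 71.1 RPM in DEN fibers, against 23.9, 28.2, 25.3 and 23.1 RPM in DEN whole muscle (log2 fold change 2.07 ± 0.36, adjusted p = 0.00075). Fiber libraries 1 and 3 were highest in both genes, and the lowest fiber library was above the highest whole muscle library. Egfl7, a secreted endothelial protein, was lower in DEN fibers (-0.86 ± 0.13 on the log2 scale). Summed over the list, endothelial RPM ran from 1052 to 1633 RPM in DEN fibers and from 908 to 1119 RPM in DEN whole muscle.

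Most smooth muscle genes were higher in DEN fibers, by amounts that differed between fiber libraries. Of 11 tested, 8 were higher and 1 was lower (median 2.002). The lower gene was Des (desmin), an intermediate filament of skeletal as well as smooth muscle that held most of the summed level of the list, and was named after its values were seen (log2 fold change -0.24, adjusted p = 0.023). The summed level ran from 5803 to 7454 RPM in DEN fibers and from 6158 to 6887 RPM in DEN whole muscle and overlapped between the groups. Myh11, the smooth muscle myosin heavy chain, had 249.5, 35.2, 157 and 503 RPM in DEN fibers, against 19.8, 21.6, 18.4 and 20.4 RPM in DEN whole muscle (log2 fold change 3.53 ± 0.64, adjusted p = 0.0010). Tagln, an actin-binding protein of smooth muscle, had 183, 23.2, 123 and 298 RPM in DEN fibers, against 16.3, 18.4, 12.9 and 15.3 RPM in DEN whole muscle (log2 fold change 3.28 ± 0.61, adjusted p = 0.0011). Cnn1 (calponin) had 18.04, 0.631, 11.7 and 29.5 RPM in DEN fibers, against 0.345, 0.322, 0.559 and 0.162 RPM in DEN whole muscle (log2 fold change 5.38 ± 0.99, adjusted p = 0.0010). In all 3 genes DEN fibers 2 was the closest to whole muscle and DEN fibers 4 was far above it. DEN fibers 4 was the highest fiber library for 11 of 11 genes of the list and DEN fibers 2 the lowest for 9 of 11, whereas over all genes these shares were 14.7% and 26.2%. With any 1 library left out 8 genes were higher, and no gene was lower without DEN whole muscle 3, DEN whole muscle 4 or DEN fibers 1. Between sham fibers and sham whole muscle the log2 fold changes were 0.97 for Myh11, 0.68 for Tagln and 0.76 for Cnn1, and the interactions passed the test (2.51, 2.55 and 4.57, adjusted p = 0.016, 0.014 and 0.0089). Mylk, the smooth muscle myosin kinase, averaged 65.9 ± 38.6 RPM in DEN fibers and 16.9 ± 0.650 RPM in DEN whole muscle (SD, n = 4 each). Acta2, with Myh11 a defining marker of smooth muscle, was higher but overlapped between the groups. It ran from 28.0 to 320 RPM in DEN fibers, against 23.7 to 32.2 RPM in DEN whole muscle (log2 fold change 2.54 ± 0.57, adjusted p = 0.0035). Of the 11 genes 5 had groups that did not overlap. Whether the amount of vessel wall differed between fiber preparations was not tested.

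Pericytes, which wrap capillaries, gave no such pattern, with 3 of 10 genes higher and 2 lower. These are 30% and 20%, against 30.2% and 26.4% over all genes. The count of lower genes was 1 without DEN whole muscle 1, DEN whole muscle 2, DEN fibers 2 or DEN fibers 4, and also with total counts, with no filter, with all 16 libraries in 1 fit and with the length trend taken out. The defining markers Rgs5 and Kcnj8 did not pass the test: Rgs5 ran from 196 to 315 RPM in DEN fibers, against 213 to 264 RPM in DEN whole muscle, and Kcnj8 from 9.37 to 16.04 RPM in DEN fibers, against 13.7 to 19.2 RPM in DEN whole muscle. Abcc9, a channel subunit that muscle fibers also express, had 348, 337, 343 and 327 RPM in DEN fibers, against 176, 185, 187 and 185 RPM in DEN whole muscle (log2 fold change 0.84 ± 0.04, adjusted p = 2.7e-07). Its groups did not overlap. Between sham fibers and sham whole muscle 1 gene of the list was higher and 8 were lower.

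Genes of Schwann cells, which ensheath axons, were mostly higher in DEN fibers. Of 12 general and repair genes 10 were higher and none lower (median 1.23), and of 8 myelin genes 5 were higher and 1 lower (median 0.94). Sox10, the transcription factor of the lineage, had 3.35, 3.46, 7.48 and 1.85 RPM in DEN fibers, against 1.35, 1.16, 1.19 and 1.26 RPM in DEN whole muscle (log2 fold change 1.64 ± 0.34, adjusted p = 0.0021). Cdh19, a Schwann cell cadherin, had 2.94, 2.79, 16.5 and 1.64 RPM in DEN fibers, against 0.673, 0.595, 0.484 and 0.750 RPM in DEN whole muscle (log2 fold change 3.17 ± 0.70, adjusted p = 0.0033). Ngfr, the low-affinity neurotrophin receptor of repair Schwann cells, had 7.01, 6.74, 25.1 and 3.41 RPM in DEN fibers, against 3.33, 3.26, 2.96 and 3.10 RPM in DEN whole muscle (log2 fold change 1.66 ± 0.49, adjusted p = 0.016). DEN fibers 3 was far above the other fibers in Cdh19 and Ngfr, and it was the highest fiber library for 10 of 12 general genes, against 50.8% of all genes. Without it the log2 fold changes were 1.95 for Cdh19 (adjusted p = 0.00012) and 0.83 for Ngfr (adjusted p = 0.0092), 9 general genes were higher, and 2 myelin genes were lower. Mbp (myelin basic protein), whose gene is also transcribed outside myelin, went the other way with 4.73, 5.17, 5.84 and 4.68 RPM in DEN fibers, against 11.2, 14.9, 10.2 and 10.3 RPM in DEN whole muscle (log2 fold change -1.23 ± 0.12, adjusted p = 1.7e-05). All fibers were below all whole muscles. Summed RPM of the general list ran from 123 to 213 RPM in DEN fibers and from 97.6 to 129 RPM in DEN whole muscle.

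Tendon and matrix genes were higher too. Of 14 tenocyte genes 11 were higher and none lower (median 1.45), with 1 lower when DEN whole muscle 3 was left out. With all 16 libraries in 1 fit 7 were higher. Tnmd (tenomodulin), a membrane protein of tendon cells, had 20.7, 28.3, 20.3 and 15.4 RPM in DEN fibers, against 3.66, 4.9997, 2.198 and 8.05 RPM in DEN whole muscle (log2 fold change 2.12 ± 0.33, adjusted p = 0.00039). Kera (keratocan), a proteoglycan of tendon and cornea, had 12.1, 22.2, 15.9 and 12.8 RPM in DEN fibers, against 2.30, 2.65, 0.931 and 5.96 RPM in DEN whole muscle (log2 fold change 2.37 ± 0.43, adjusted p = 0.0010). The groups did not overlap in either gene, and DEN whole muscle 4 was the highest whole muscle. Summed over the list the level ran from 1029 to 1447 RPM in DEN fibers and from 308 to 656 RPM in DEN whole muscle. Scx, the second defining marker, ran from 53.4 to 120.1 RPM in DEN fibers, against 49.1 to 112 RPM in DEN whole muscle and did not pass the test. Of 35 collagen and matrix genes 20 were higher and none lower (median 0.92), with a median of 0.55 with the length trend taken out. DEN fibers 3 was the highest fiber library for 31 of the 35, against 50.8% of all genes. DEN whole muscle 2 was the highest whole muscle library for 28, against 28.2% of all genes, and DEN whole muscle 3 the lowest for 29, against 28.6%. The summed level ran from 4263 to 6372 RPM in DEN fibers and from 2172 to 5051 RPM in DEN whole muscle and overlapped. Lama2, the laminin chain of the basal lamina of muscle, had 87.1, 86.1, 114 and 81.3 RPM in DEN fibers, against 28.5, 30.4, 26.9 and 28.9 RPM in DEN whole muscle (log2 fold change 1.63 ± 0.08, adjusted p = 1.7e-07; 0.94 with the length trend taken out). Col12a1, a collagen that decorates fibrils, had 35.02, 48.5, 49.1 and 58.6 RPM in DEN fibers, against 7.60, 21.8, 3.93 and 17.4 RPM in DEN whole muscle (log2 fold change 1.87 ± 0.43, adjusted p = 0.0039; 1.24 with the length trend taken out). Col1a1, the most abundant fibrillar collagen, varied widely in whole muscle, with 367, 285, 409 and 319 RPM in DEN fibers, against 266, 626, 149.8 and 485 RPM in DEN whole muscle (log2 fold change -0.19 ± 0.35, adjusted p = 0.67). Without DEN whole muscle 2 the log2 difference was 0.14.

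Fibro-adipogenic progenitor genes were higher for 7 of 22 and lower for none (median 0.32), a share close to the 30.2% of all genes that were higher. With the length trend taken out 5 were higher (median 0.17), and with the replicate number as a block 1 was lower. Pdgfra, the receptor that defines these cells, had 23.6, 22.1, 37.6 and 21.7 RPM in DEN fibers, against 14.4, 14.4, 12.4 and 12.96 RPM in DEN whole muscle (log2 fold change 0.90 ± 0.14, adjusted p = 0.00041; 0.52 with the length trend taken out). DEN fibers 3 was well above the other fibers. Dcn (decorin), a matrix proteoglycan, had 345, 386, 474 and 274 RPM in DEN fibers, against 191, 219, 159 and 184 RPM in DEN whole muscle (log2 fold change 0.92 ± 0.13, adjusted p = 0.00023). Lox, which cross-links collagen, had 80.9, 79.4, 72.9 and 84.0 RPM in DEN fibers, against 16.4, 26.2, 13.9 and 24.8 RPM in DEN whole muscle (log2 fold change 1.92 ± 0.19, adjusted p = 1.5e-05). In all 3 genes no whole muscle library reached a fiber library, and the sum over the list ran from 2584 to 3766 RPM in DEN fibers and from 1433 to 3382 RPM in DEN whole muscle.

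Adipocyte genes were lower in DEN fibers for 9 of 11, with 1 higher (median -2.24). Adipoq (adiponectin), the hormone of fat cells, had 1.13, 0.0877, 0.108 and 0.663 RPM in DEN fibers, against 4.59, 7.59, 0.931 and 1.10 RPM in DEN whole muscle (log2 fold change -2.90 ± 0.85, adjusted p = 0.015). The groups overlapped, since DEN whole muscle 3 and 4 were low and DEN fibers 1 was the highest fiber. Plin1, which coats the lipid droplet of adipocytes, had 0.623, 0, 0.451 and 0.604 RPM in DEN fibers, against 4.35, 7.40, 0.838 and 1.38 RPM in DEN whole muscle (log2 fold change -3.12 ± 0.81, adjusted p = 0.0077). Pck1, an enzyme of glyceride and glucose synthesis, had 0.409, 0, 0.1802 and 0.585 RPM in DEN fibers, against 4.76, 6.83, 1.14 and 0.913 RPM in DEN whole muscle (log2 fold change -3.61 ± 0.84, adjusted p = 0.0044). Both genes had 0 in DEN fibers 2, and in both the groups were apart. Car3, a carbonic anhydrase that muscle fibers express as well, made up most of the summed level of the list and had 5303, 5235, 4985 and 4778 RPM in DEN fibers, against 7456, 7449, 7424 and 6823 RPM in DEN whole muscle (log2 fold change -0.57 ± 0.07, adjusted p = 5.2e-05).

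Of the immune cell lists, that of macrophages went both ways, with 31.8% higher and 36.4% lower, against 30.2% and 26.4% over all genes. Of 22 macrophage genes 7 were higher and 8 lower (median -0.14), and the count of lower genes was 3 with all 16 libraries in 1 fit, 4 with total counts in place of TMM, and 5 with the length trend taken out or without DEN whole muscle 4 or DEN fibers 1. Cd68, a lysosomal macrophage protein, had 15.9, 15.4, 18.3 and 16.1 RPM in DEN fibers, against 10.9, 9.49, 13.2 and 13.6 RPM in DEN whole muscle (log2 fold change 0.43 ± 0.11, adjusted p = 0.0081). In contrast, Csf1r, the receptor for the macrophage growth factor, ran from 12.7 to 22.3 RPM in DEN fibers, against 13.9 to 17.5 RPM in DEN whole muscle and did not pass the test. Cd14, a co-receptor for bacterial lipopolysaccharide, had 13.3, 12.4, 12.3 and 10.8 RPM in DEN fibers, against 1.90, 2.01, 2.22 and 2.11 RPM in DEN whole muscle (log2 fold change 2.52 ± 0.09, adjusted p = 4.0e-08). Mrc1, the mannose receptor of resident macrophages, averaged 24.4 ± 5.66 RPM in DEN fibers and 11.5 ± 1.31 RPM in DEN whole muscle (SD, n = 4 each; log2 fold change 1.04 ± 0.13, adjusted p = 7.9e-05). Ccr2, the chemokine receptor of recruited monocytes, had 1.99, 1.63, 2.23 and 1.58 RPM in DEN fibers, against 3.80, 4.39, 4.73 and 5.50 RPM in DEN whole muscle (log2 fold change -1.36 ± 0.14, adjusted p = 2.6e-05), which is the reverse order of Cd14 and Mrc1. Between sham fibers and sham whole muscle 2 macrophage genes were higher and 15 lower. The summed level of the macrophage list ran from 224 to 318 RPM in DEN fibers and from 259 to 324 RPM in DEN whole muscle. Of the 10 neutrophil genes listed 4 could be tested, and 2 of them, S100a8 and Lcn2, were higher. That is 50% of few genes, against 30.2% higher over all genes. S100a8, a calcium-binding protein of neutrophils and monocytes, had 47.9, 49.6, 58.6 and 44.6 RPM in DEN fibers, against 18.5, 14.7, 19.6 and 16.2 RPM in DEN whole muscle (log2 fold change 1.49 ± 0.09, adjusted p = 9.3e-07). Of 5 lymphocyte genes none was higher and 2 were lower (1 without DEN whole muscle 4, DEN fibers 1 or DEN fibers 3). In the main fit that is 40% of few genes, against 26.4% lower over all genes. Of 6 mast cell genes Hdc, which makes histamine, was the gene that was higher, with 4.34, 1.39, 2.74 and 1.77 RPM in DEN fibers, against 0.432, 0.338, 0.410 and 0.974 RPM in DEN whole muscle (log2 fold change 2.22 ± 0.42, adjusted p = 0.0013). The share of mast cell genes that were higher was thus 16.7%, against 30.2% over all genes.

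Red blood cell genes passed the edgeR test in 0 of 6 members, and DESeq2 also called 0, and 0 had an unadjusted p below 0.05. Hbb-bs, an adult beta-globin, had 136, 153, 257 and 173 RPM in DEN fibers, against 167, 134, 111 and 120.3 RPM in DEN whole muscle (log2 fold change 0.38 ± 0.18, adjusted p = 0.092). Its difference passed the test without DEN whole muscle 1 (log2 fold change 0.50, adjusted p = 0.040) or without DEN fibers 1 (0.49, adjusted p = 0.038), and 2 genes of the list were then higher.

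**Figure D3:**
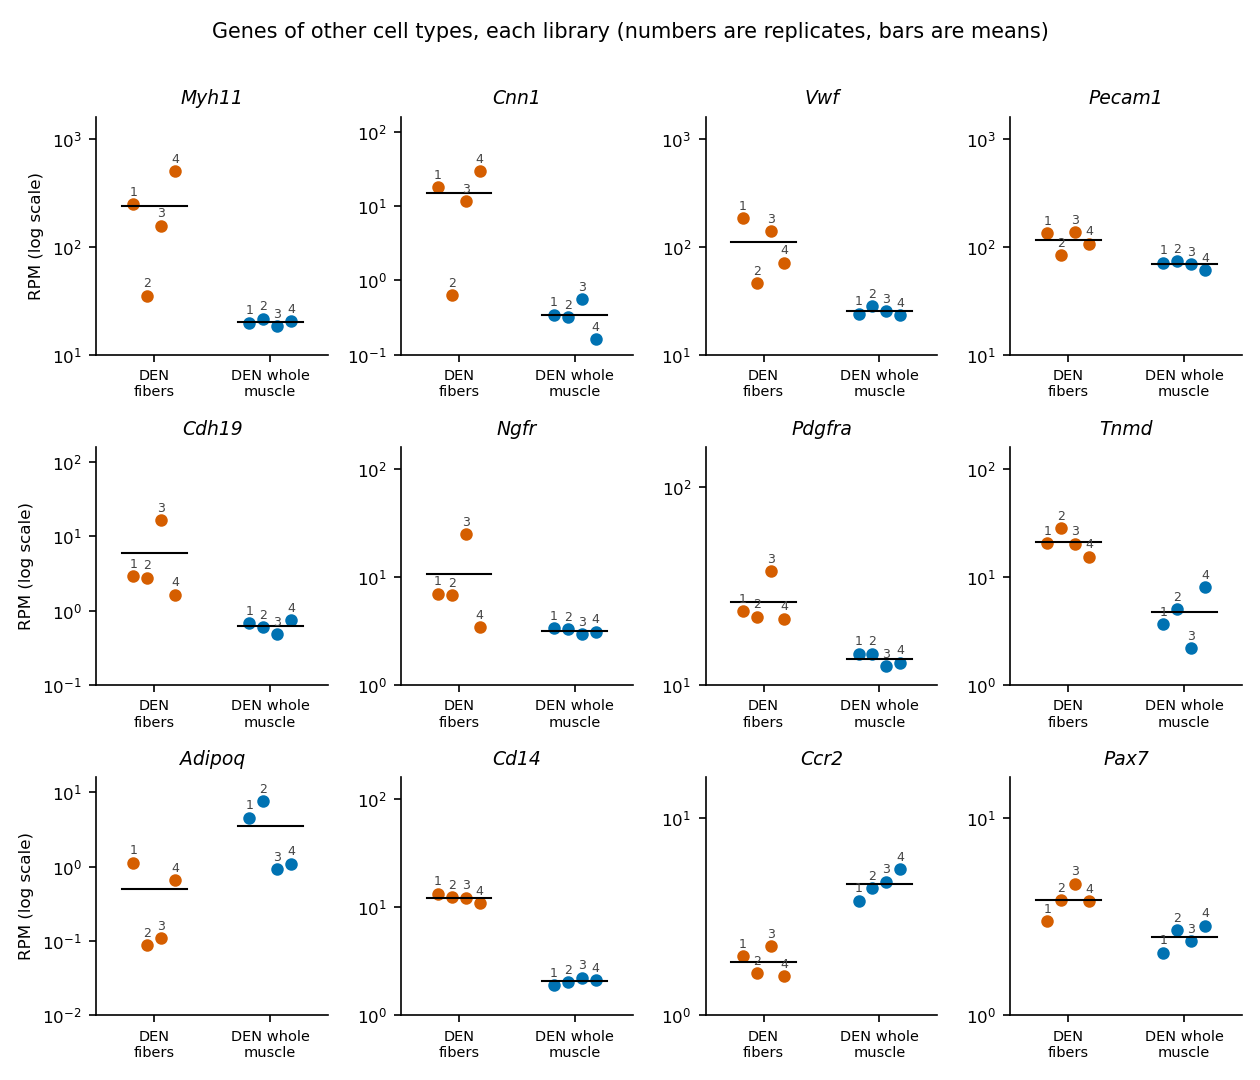
RPM of 12 marker genes of cells outside the fiber, each point 1 library with its replicate number, on log axes, with lines at the group means and DEN fibers left of DEN whole muscle. The vascular, Schwann, fibroblast, tendon and satellite cell markers drawn lie higher in DEN fibers, with a wide spread in Myh11 (35.2 to 503 RPM). The pericyte markers Rgs5 and Kcnj8 and the tendon marker Scx, which did not pass the test, are not drawn. Ccr2 lies lower without overlap, and Adipoq lies lower on average with libraries that overlap.

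Satellite cells stay on the fiber under its basal lamina. Of 15 of their genes 10 were higher and 3 lower in DEN fibers (median 0.80). The genes described next were all higher, and the 3 lower ones are not shown, so that these genes do not stand for the whole list. Pax7, the transcription factor that defines them, had 2.997, 3.82, 4.63 and 3.76 RPM in DEN fibers, against 2.07, 2.68, 2.37 and 2.84 RPM in DEN whole muscle (log2 fold change 0.56 ± 0.14, adjusted p = 0.0063). The lowest fiber library was just above the highest whole muscle library. Calcr, the calcitonin receptor of quiescent satellite cells, ran from 0.561 to 1.06 RPM in DEN fibers, against 0.193 to 0.446 RPM in DEN whole muscle and was higher in DEN fibers (log2 fold change 1.12, adjusted p = 0.0065). Vcam1, an adhesion molecule of satellite cells and activated endothelium, had 49.8, 18.7, 25.8 and 29.5 RPM in DEN fibers, against 3.401, 3.78, 2.999 and 5.94 RPM in DEN whole muscle (log2 fold change 2.90 ± 0.32, adjusted p = 3.7e-05). Hes1, a target of Notch, averaged 91.6 ± 18.9 RPM in DEN fibers and 34.4 ± 4.80 RPM in DEN whole muscle (SD, n = 4 each), and Notch1 itself 41.6 ± 7.03 RPM in DEN fibers and 15.3 ± 0.475 RPM in DEN whole muscle (SD, n = 4 each), log2 differences of 1.37 ± 0.15 and 1.39 ± 0.09 (0.79 for Notch1 with the length trend taken out). For Pax7 the sham difference ran the other way, with a log2 fold change of -0.66 (adjusted p = 0.026), and the interaction was 1.17 (adjusted p = 0.0068).

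The myosin heavy chains of the fiber differed in their shares. Each heavy chain gene encodes the motor of a fiber type, from the fastest, Myh4 (type 2B), over Myh1 (2X) and Myh2 (2A), to the slow Myh7, while Myh3 and Myh8 are the embryonic and perinatal forms. Levels were compared between these genes per length, as shares of their summed deposited RPKM. Myh4 took 40.7, 33.4, 33.4 and 34.03% in DEN fibers, against 47.8, 50.2, 49.0 and 49.7% in DEN whole muscle, with all fibers below all whole muscles. The means were 35.4% ± 3.54 in DEN fibers and 49.2% ± 1.046 in DEN whole muscle (SD, n = 4 each; exact permutation test, two-sided, p = 0.0286, the smallest that 4 against 4 allows, adjusted p = 0.0429 over 6 genes). Myh2 took 26.4, 28.1, 29.9 and 32.5% in DEN fibers, against 14.98, 11.9, 14.05 and 13.1% in DEN whole muscle, with means of 29.2% ± 2.61 in DEN fibers and 13.5% ± 1.32 in DEN whole muscle (SD, n = 4 each; exact permutation p = 0.0286, adjusted p = 0.0429). The Myh2 ranges were thus far apart. Myh1 took 31.3, 37.2, 34.6 and 32.2% in DEN fibers, against 36.4, 37.1, 35.7 and 36.2% in DEN whole muscle and the groups overlapped (exact permutation p = 0.143). Without DEN fibers 2 the difference in the Myh1 share was -3.62 percentage points (exact permutation p = 0.0286). The level of Myh1, unlike its share, did differ. It ran from 9168 to 12170 RPM in DEN fibers, against 13813 to 15567 RPM in DEN whole muscle, without overlap (log2 fold change -0.55 ± 0.11, edgeR adjusted p = 0.0014).

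Slow Myh7 was a very small part of myosin in both groups but a larger one in DEN fibers, with 0.0722% ± 0.0273 in DEN fibers and 0.00622% ± 0.00125 in DEN whole muscle (SD, n = 4 each; exact permutation p = 0.0286, adjusted p = 0.0429). Myh7 had 26.5, 28.7, 18.2 and 49.0 RPM in DEN fibers, against 3.95, 2.67, 3.74 and 3.35 RPM in DEN whole muscle (log2 fold change 3.13 ± 0.31, adjusted p = 1.8e-05), with DEN fibers 4 highest. Perinatal Myh8 took 0.583% ± 0.0333 in DEN fibers and 0.457% ± 0.0386 in DEN whole muscle (SD, n = 4 each; exact permutation p = 0.0286, adjusted p = 0.0429), although its RPM did not differ by the test (log2 fold change -0.11 ± 0.10, adjusted p = 0.38). Embryonic Myh3 had 276, 235, 354 and 189 RPM in DEN fibers, against 149.8, 159.8, 305 and 200.5 RPM in DEN whole muscle. The groups overlapped (log2 fold change 0.31 ± 0.23, adjusted p = 0.28), and without DEN whole muscle 3 the difference was 0.58 (adjusted p = 0.022). In the sham groups Myh4 took 88.8% in sham fibers and 81.9% in sham whole muscle, Myh1 9.25% in sham fibers and 15.98% in sham whole muscle and Myh2 1.44% in sham fibers and 1.61% in sham whole muscle. The sham shares of Myh4 ran from 85.2 to 93.1% in sham fibers and from 78.2 to 86.4% in sham whole muscle, so the groups overlapped, and they were not tested.

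**Figure D4:**
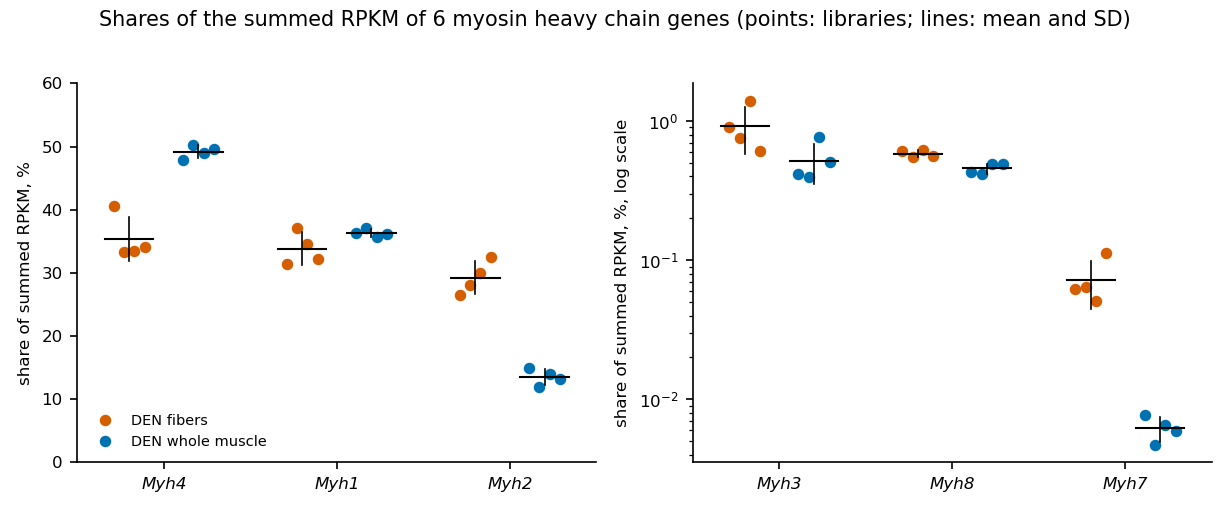
Share of each myosin heavy chain gene in the summed RPKM of 6 genes, in percent (left panel linear, right panel on a log axis), each point 1 library, with lines at the mean and SD and DEN fibers left of DEN whole muscle. DEN fibers hold less Myh4 (35.4% against 49.2%) and more Myh2 (29.2% against 13.5%) than DEN whole muscle, and the Myh1 and Myh3 shares overlap.

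The sarcomere lists include heavy chains described above, such as Myh4 in the fast list and Myh7 in the slow list. The counts of these lists therefore partly repeat the heavy chain differences. Of 23 fast sarcomere genes 12 were lower and 2 higher in DEN fibers (median -0.24), with 5 higher without DEN fibers 3 or with total counts and 1 with the length trend taken out. Mybpc2, the fast myosin-binding protein C, had 466, 493, 273 and 477 RPM in DEN fibers, against 1199, 1428, 1166 and 1514 RPM in DEN whole muscle (log2 fold change -1.67 ± 0.20, adjusted p = 5.5e-05). Myom2, an M-band protein of fast fibers, had 355, 369.6, 263 and 348 RPM in DEN fibers, against 766, 835, 841 and 918 RPM in DEN whole muscle (log2 fold change -1.37 ± 0.12, adjusted p = 9.3e-06). DEN fibers 3 was lowest in both, and the groups were far apart. Of 17 genes of slow sarcomeres and oxidative fibers 12 were higher and 3 lower (median 0.67). Myl2, the slow regulatory light chain, had 8.29, 18.9, 6.52 and 8.38 RPM in DEN fibers, against 2.54, 1.32, 1.86 and 1.20 RPM in DEN whole muscle (log2 fold change 2.57 ± 0.38, adjusted p = 0.00025), with DEN fibers 2 highest. Myl3, the slow essential light chain, had the opposite order and was among the largest falls of genes at 10 RPM or more, with 4.85, 11.3, 3.55 and 5.63 RPM in DEN fibers, against 92.1, 92.2, 106 and 62.3 RPM in DEN whole muscle (log2 fold change -3.83 ± 0.33, adjusted p = 7.9e-06). Csrp3, a stress-sensing protein of the Z-disc, averaged 938 ± 119 RPM in DEN fibers and 358 ± 79.8 RPM in DEN whole muscle (SD, n = 4 each), 1.35 ± 0.17 higher on the log2 scale. Between sham groups Myl3 was also lower in fibers (-5.16, adjusted p = 1.8e-05), whereas Myl2 and Myh7 did not pass the test there (0.42 and 0.68, adjusted p = 0.61 and 0.28).

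Of 14 developmental sarcomere and cytoskeleton genes 6 were higher and 3 lower. These are 42.9% and 21.4%, against 30.2% and 26.4% over all genes. Xirp1, an actin-binding protein of muscle, had 871, 1033, 885 and 1098 RPM in DEN fibers, against 313, 273, 367 and 384 RPM in DEN whole muscle (log2 fold change 1.498 ± 0.13, adjusted p = 8.7e-06). Actc1, the cardiac actin that immature and denervated fibers express, had 25.9, 32.1, 17.4 and 15.5 RPM in DEN fibers, against 41.2, 40.5, 46.1 and 72.5 RPM in DEN whole muscle (log2 fold change -1.18 ± 0.26, adjusted p = 0.0033), with all fibers below all whole muscles. Between sham fibers and sham whole muscle Actc1 had a log2 fold change of 1.70 (adjusted p = 0.030), the opposite direction. The keratins Krt8 and Krt18, intermediate filament partners, were both lower in DEN fibers. Krt8 had 86.8, 73.5, 78.6 and 89.0 RPM in DEN fibers, against 181, 166, 166 and 215 RPM in DEN whole muscle (log2 fold change -1.20 ± 0.10, adjusted p = 7.2e-06). Krt18 had 283, 207, 242 and 252 RPM in DEN fibers, against 477, 457, 427 and 524 RPM in DEN whole muscle (log2 fold change -0.98 ± 0.10, adjusted p = 2.1e-05), and neither overlapped.

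Genes of the neuromuscular junction were mostly higher in DEN fibers, 13 of 19, with 4 lower (median 0.57), but the receptor subunits were split. Chrna1, the alpha subunit of the acetylcholine receptor, had 311, 293, 332 and 238 RPM in DEN fibers, against 429, 429.7, 529.9 and 408 RPM in DEN whole muscle (log2 fold change -0.66 ± 0.10, adjusted p = 0.00032), with every fiber library below every whole muscle. Chrng, the fetal gamma subunit that returns after denervation, had 55.6, 53.3, 77.9 and 35.7 RPM in DEN fibers, against 63.8, 59.7, 103 and 56.1 RPM in DEN whole muscle, with overlap (log2 fold change -0.40 ± 0.23, adjusted p = 0.16). Chrne, the adult epsilon subunit, had 38.5, 43.5, 47.3 and 32.3 RPM in DEN fibers, against 24.9, 20.9, 27.9 and 24.1 RPM in DEN whole muscle (log2 fold change 0.68 ± 0.11, adjusted p = 0.00047), above whole muscle in every fiber. Musk, the receptor kinase that clusters acetylcholine receptors, had 102, 102, 129 and 93.3 RPM in DEN fibers, against 31.4, 32.4, 48.0 and 36.1 RPM in DEN whole muscle (log2 fold change 1.47 ± 0.13, adjusted p = 1.1e-05). Utrn (utrophin), which anchors the junctional membrane, had 95.9, 73.2, 106 and 94.0 RPM in DEN fibers, against 27.5, 29.0, 28.4 and 29.5 RPM in DEN whole muscle (log2 fold change 1.64 ± 0.09, adjusted p = 3.5e-07; 0.93 with the length trend taken out). Both were apart without overlap. Agrn, which activates Musk, averaged 45.6 ± 6.55 RPM in DEN fibers and 22.5 ± 2.37 RPM in DEN whole muscle (SD, n = 4 each; log2 fold change 0.97, 0.65 with the length trend taken out), and Ache, which breaks down acetylcholine, 31.4 ± 6.91 RPM in DEN fibers and 15.4 ± 1.26 RPM in DEN whole muscle (SD, n = 4 each).

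Regulators that respond to denervation went mostly the other way. Of 19 tested 10 were lower and 5 higher in DEN fibers (median -0.34), and 3 were higher when gene length was taken out. In the main fit that is 52.6% lower and 26.3% higher, against 26.4% and 30.2% over all genes. Myod1, the myogenic transcription factor, had 49.8, 55.02, 72.5 and 26.4 RPM in DEN fibers, against 161, 203, 209 and 142 RPM in DEN whole muscle (log2 fold change -1.87 ± 0.24, adjusted p = 0.00011). Myog (myogenin), which activates acetylcholine receptor genes, had 82.9, 64.5, 115 and 57.1 RPM in DEN fibers, against 127, 134, 156 and 149 RPM in DEN whole muscle (log2 fold change -0.89 ± 0.17, adjusted p = 0.0013). In both the highest fiber library was below the lowest whole muscle library. Runx1, a transcription factor that preserves denervated fibers, had 98.3, 104, 127 and 86.2 RPM in DEN fibers, against 125, 144, 142 and 118 RPM in DEN whole muscle (log2 fold change -0.40 ± 0.09, adjusted p = 0.0046; -0.89 with the length trend taken out), with slight overlap. Cdkn1a, the cell cycle inhibitor p21, had 325, 254, 321 and 257 RPM in DEN fibers, against 591, 606, 511 and 527 RPM in DEN whole muscle (log2 fold change -0.998 ± 0.09, adjusted p = 6.6e-06), without overlap. Klf5 and Hdac9, a transcription factor and a deacetylase that represses myogenic genes, were higher, with averages of 17.1 ± 2.73 RPM in DEN fibers and 8.06 ± 0.341 RPM in DEN whole muscle for Klf5 and 9.65 ± 1.06 RPM in DEN fibers and 4.03 ± 0.611 RPM in DEN whole muscle for Hdac9 (SD, n = 4 each). The log2 fold change of Hdac9 was 1.22, and 0.60 with the length trend taken out.

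In the sham groups this list had the reverse balance, with 11 genes higher and 3 lower in fibers, and 10 interactions were negative and none positive. For Runx1 the log2 fold change of fibers over whole muscle was -0.40 after DEN and 3.25 after sham (interaction -3.69, adjusted p = 1.4e-07), for Myog -0.89 and 1.21 (interaction -2.15, adjusted p = 1.9e-05), and for Chrna1 -0.66 and 1.30 (interaction -2.02, adjusted p = 2.6e-07). Levels were much lower without denervation. Runx1 averaged 15.6 (sham fibers) and 1.61 RPM (sham whole muscle), Myog 3.38 (sham fibers) and 1.43 RPM (sham whole muscle) and Chrna1 16.8 (sham fibers) and 6.71 RPM (sham whole muscle).

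Muscle atrophy genes went both ways, with 11 of 29 higher and 12 lower (median 0.09). These are 37.9% and 41.4%, against 30.2% and 26.4% over all genes. With the length trend taken out 8 were higher and 13 lower (median -0.12). Acvr2b, the receptor for myostatin and activins, had 5.43, 7.67, 4.97 and 6.16 RPM in DEN fibers, against 1.19, 0.836, 1.16 and 1.14 RPM in DEN whole muscle (log2 fold change 2.45 ± 0.18, adjusted p = 2.6e-06). Foxo3, a transcription factor that drives atrophy genes, had 50.3, 51.6, 61.0 and 57.3 RPM in DEN fibers, against 26.8, 27.04, 29.6 and 31.6 RPM in DEN whole muscle (log2 fold change 0.89 ± 0.07, adjusted p = 5.2e-06). Its relative Foxo4 had 67.9, 60.8, 56.8 and 58.6 RPM in DEN fibers, against 126, 135, 121 and 126 RPM in DEN whole muscle (log2 fold change -1.10 ± 0.07, adjusted p = 8.7e-07). Both pairs of groups were apart, in opposite directions. Asns (asparagine synthetase), a target of the amino acid response, averaged 20.3 ± 3.398 RPM in DEN fibers and 6.18 ± 1.30 RPM in DEN whole muscle (SD, n = 4 each).

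The proteasome, which degrades ubiquitin-tagged proteins, was lower in nearly all of its genes. Of 31 subunit genes 28 were lower in DEN fibers and none higher, against 26.4% lower over all genes, but by small amounts (median -0.29). Psmc5, an ATPase subunit, had 166, 151, 152 and 155 RPM in DEN fibers, against 233, 235, 228 and 223 RPM in DEN whole muscle (log2 fold change -0.60 ± 0.05, adjusted p = 6.2e-06). Psmd2, a scaffold subunit of the regulatory particle, had 363, 350.2, 346 and 347 RPM in DEN fibers, against 483, 500.1, 482 and 487 RPM in DEN whole muscle (log2 fold change -0.52 ± 0.05, adjusted p = 9.5e-06). The libraries of each group lay close together and did not overlap with the other group. Between sham fibers and sham whole muscle 3 were higher and 4 lower, and 26 interactions were negative. With the length trend taken out 22 of the 31 were lower (median -0.18).

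Of 43 ribosomal protein genes 8 were lower and none higher (median -0.04), but with the length trend taken out 3 were lower and 4 higher (median 0.03). The 8 lower genes are 18.6%, against 26.4% lower over all genes. The count of lower genes was 4 without DEN whole muscle 3 or without DEN fibers 2. A single gene was higher with DESeq2 or without DEN whole muscle 3 or DEN fibers 3, 2 without DEN fibers 4, and 3 with a minimum count of 50. Rps9 had 326, 313, 338 and 318 RPM in DEN fibers, against 381, 361, 390.3 and 363 RPM in DEN whole muscle (log2 fold change -0.25 ± 0.04, adjusted p = 0.00076; -0.15 with the length trend taken out), a small gap without overlap. Nuclear genes of oxidative phosphorylation had 18 of 47 lower and 3 higher (median -0.08), and 12 lower and 5 higher with the length trend taken out (median 0.01). In the main fit that is 38.3% lower and 6.38% higher, against 26.4% and 30.2% over all genes. The higher genes numbered 1 with all 16 libraries in 1 fit or without DEN whole muscle 2, and 5 without DEN fibers 3. Uqcrc1, of complex III, had 632, 696, 686 and 721 RPM in DEN fibers, against 939, 910.2, 902 and 886 RPM in DEN whole muscle (log2 fold change -0.45 ± 0.06, adjusted p = 0.00011). Of the 13 mitochondrially encoded genes 4 were lower and 2 higher (1 higher without DEN fibers 1, DEN fibers 2, or any of DEN whole muscle 1, 3 and 4, and 0 with all 16 libraries in 1 fit). In the main fit these are 30.8% lower and 15.4% higher, against 26.4% and 30.2% over all genes. With the length trend taken out 3 were lower and 3 higher. mt-Nd2, of complex I, had 4124, 4297, 4166 and 4132 RPM in DEN fibers, against 5523, 5433, 5154 and 4934 RPM in DEN whole muscle (log2 fold change -0.38 ± 0.06, adjusted p = 0.00047). mt-Nd6, the gene on the opposite strand of the mitochondrial genome, had 106, 87.2, 91.3 and 73.0 RPM in DEN fibers, against 185, 119, 133 and 135 RPM in DEN whole muscle (log2 fold change -0.72 ± 0.14, adjusted p = 0.0015). No fiber library reached a whole muscle library in either. With total counts in place of TMM 3 ribosomal protein genes were higher and 5 lower, 7 nuclear genes of oxidative phosphorylation were higher, and 5 mitochondrially encoded genes were higher.

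In glycolysis and glycogen metabolism 11 of 25 genes were lower and 5 higher (median -0.09), and the higher ones included regulators. The shares were 44% lower and 20% higher, against 26.4% and 30.2% over all genes. Hk2, the hexokinase that traps glucose, had 865, 1096, 871 and 897 RPM in DEN fibers, against 401, 362, 456 and 448 RPM in DEN whole muscle (log2 fold change 1.12 ± 0.11, adjusted p = 1.6e-05). Pfkfb3, which makes the activator of phosphofructokinase, had 382, 399.8, 284 and 374 RPM in DEN fibers, against 187, 156, 93.3 and 209.5 RPM in DEN whole muscle (log2 fold change 1.12 ± 0.22, adjusted p = 0.0018). Ppp1r3a, the muscle subunit that targets a phosphatase to glycogen, had 208, 236, 213 and 218 RPM in DEN fibers, against 92.6, 92.5, 91.4 and 96.6 RPM in DEN whole muscle (log2 fold change 1.19 ± 0.06, adjusted p = 2.2e-07), the narrowest spread of the 3. In all 3 genes the fibers were above the whole muscles. Clock genes were higher for 10 of 16 and lower for 3 (median 0.31), with 5 and 1 when all 16 libraries shared 1 fit. Bhlhe40, a repressor of the clock, had 517, 680.4, 500.4 and 575 RPM in DEN fibers, against 167, 151, 148 and 183 RPM in DEN whole muscle (log2 fold change 1.77 ± 0.12, adjusted p = 1.4e-06). Ciart, another repressor, had 20.1, 26.3, 20.5 and 18.98 RPM in DEN fibers, against 6.89, 5.21, 6.86 and 7.91 RPM in DEN whole muscle (log2 fold change 1.63 ± 0.14, adjusted p = 8.1e-06), and its sham log2 fold change was 5.13 (interaction -3.55, adjusted p = 3.2e-05). The hour of collection was not given in the sources used here.

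Of 24 genes of limb position and muscle identity 7 were higher and 9 lower. These are 29.2% and 37.5%, against 30.2% and 26.4% over all genes. Among these, Pitx1, the hindlimb transcription factor, had 0.350, 0.456, 0.432 and 0.331 RPM in DEN fibers, against 1.10, 1.53, 0.615 and 1.30 RPM in DEN whole muscle (log2 fold change -1.57 ± 0.27, adjusted p = 0.00073). En1, a limb patterning factor, had 1.40, 1.37, 1.10 and 1.52 RPM in DEN fibers, against 2.24, 2.68, 2.38 and 2.45 RPM in DEN whole muscle (log2 fold change -0.90 ± 0.14, adjusted p = 0.00034). Six2, a homeobox gene, had 1.19, 1.35, 1.59 and 1.33 RPM in DEN fibers, against 0.535, 0.643, 0.317 and 0.507 RPM in DEN whole muscle (log2 fold change 1.39 ± 0.20, adjusted p = 0.00019), the opposite order. All 3 were low, and their lack of overlap follows from the rule by which list genes were named.

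Among genes that reached a mean of 10 RPM in either group and whose libraries did not overlap, the largest fall was that of Sim2, a transcription factor of the bHLH-PAS family, with 0.701, 1.11, 0.919 and 0.409 RPM in DEN fibers, against 33.8, 37.9, 35.4 and 31.9 RPM in DEN whole muscle (log2 fold change -5.50 ± 0.18, adjusted p = 2.8e-08). The sham log2 fold change of Sim2 was -5.56 (adjusted p = 2.2e-08), and the interaction was 0.01 (adjusted p = 0.99). Bpifb1, of a family of lipid-binding secreted proteins, had 1.03, 1.44, 1.73 and 0.565 RPM in DEN fibers, against 12.02, 19.9, 15.9 and 8.54 RPM in DEN whole muscle (log2 fold change -3.61 ± 0.33, adjusted p = 9.8e-06). Tekt1, a filament protein of cilia, had 4.22, 4.24, 3.53 and 3.27 RPM in DEN fibers, against 26.1, 26.1, 19.2 and 22.6 RPM in DEN whole muscle (log2 fold change -2.66 ± 0.12, adjusted p = 1.5e-07), and between the sham groups it did not pass the test (0.20, adjusted p = 0.46; interaction -2.91, adjusted p = 1.7e-06). Hpgd, which inactivates prostaglandins, had 4.79, 3.93, 4.22 and 4.19 RPM in DEN fibers, against 24.8, 32.6, 14.03 and 19.1 RPM in DEN whole muscle (log2 fold change -2.45 ± 0.23, adjusted p = 1.1e-05). Dupd1, a dual specificity phosphatase gene, had 77.2, 73.6, 57.6 and 63.7 RPM in DEN fibers, against 277, 303, 231 and 252 RPM in DEN whole muscle (log2 fold change -2.01 ± 0.12, adjusted p = 5.6e-07), with a sham log2 fold change of -0.30 (adjusted p = 0.26). Ighm, the heavy chain of immunoglobulin M made by B cells, had 3.50, 3.32, 4.74 and 2.75 RPM in DEN fibers, against 12.7, 13.5, 11.9 and 13.1 RPM in DEN whole muscle (log2 fold change -1.89 ± 0.12, adjusted p = 1.0e-06). In each of these 6 genes every fiber library was below every whole muscle library, which the choice of these genes required. Aldh3a1, Mtss2, Igfbp2 and Micall2 also were among the 12 largest falls of such genes, at -2.15, -2.03, -1.97 and -1.72.

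Between sham fibers and sham whole muscle 4088 of 16005 genes were higher and 3721 lower (48.8% called). Of 15662 genes tested in both, 9059 were called after DEN and 7634 after sham, and 5662 in both, which is 62.5% of the DEN calls and 74.2% of the sham calls. Of these 5405 had the same direction and 257 the opposite. The interaction, (DEN fibers - DEN whole muscle) - (sham fibers - sham whole muscle), passed the test for 3307 of 17497 genes (18.9%), 1241 positive and 2066 negative. With total counts in place of TMM these numbers were 1488 and 1173, and without a filter on low counts 1312 and 1227, so that the balance of the directions depended on these settings.

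Of the 257, 127 were higher in DEN fibers and lower in sham fibers. Scd1, a desaturase that makes monounsaturated fatty acids, had 377, 319, 466 and 441 RPM in DEN fibers, against 102, 122, 142 and 149.9 RPM in DEN whole muscle (log2 fold change 1.59 ± 0.14, adjusted p = 9.2e-06). In the sham groups it averaged 14.1 (sham fibers) and 33.5 RPM (sham whole muscle), a log2 fold change of -1.28 (adjusted p = 0.040), and the interaction was 2.81 (adjusted p = 0.0015). Nckap1l, an actin regulator of blood cells, had 14.1, 15.6, 15.6 and 16.6 RPM in DEN fibers, against 5.14, 4.86, 5.63 and 6.19 RPM in DEN whole muscle (log2 fold change 1.46 ± 0.10, adjusted p = 1.2e-06), with a sham log2 fold change of -0.94 (adjusted p = 0.032). Sntb1, a syntrophin of the dystrophin complex, had 13.9, 12.6, 13.8 and 16.2 RPM in DEN fibers, against 4.14, 3.67, 5.27 and 5.58 RPM in DEN whole muscle (log2 fold change 1.56 ± 0.15, adjusted p = 1.3e-05), with -0.64 between the sham groups (adjusted p = 0.0052). All 3 had every DEN fiber library above every DEN whole muscle. Zfp385a, a zinc finger protein, had 0.81 after DEN and -0.91 after sham. Adamts8 (a protease) and Gucy1a1 (a subunit of the nitric oxide receptor) had 0.83 and 0.73, but their DEN libraries overlapped. Adamts8 lost its call without DEN whole muscle 1 (0.80), DEN whole muscle 3 (0.77), DEN whole muscle 4 (0.71), DEN fibers 1 (0.81) or DEN fibers 4 (0.57), and Gucy1a1 without DEN whole muscle 3 (0.66) or DEN fibers 4 (0.55).

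The other 130 were lower in DEN fibers and higher in sham fibers. Cdkn1a had -0.998 after DEN and 2.53 after sham, with an interaction of -3.57 (adjusted p = 8.1e-07). Its sham averages were 73.3 (sham fibers) and 12.4 RPM (sham whole muscle). Ces2c, a carboxylesterase, had 15.1, 14.2, 12.5 and 11.9 RPM in DEN fibers, against 32.96, 30.5, 30.1 and 26.8 RPM in DEN whole muscle (log2 fold change -1.21 ± 0.09, adjusted p = 2.8e-06). In the sham groups Ces2c averaged 2.73 (sham fibers) and 0.199 RPM (sham whole muscle), a log2 fold change of 3.74, and the interaction was -4.996 (adjusted p = 5.6e-10). Kcnk5, a potassium leak channel, had 27.4, 29.9, 36.2 and 15.7 RPM in DEN fibers, against 71.8, 100.5, 83.5 and 59.5 RPM in DEN whole muscle (log2 fold change -1.58 ± 0.22, adjusted p = 0.00017). Adra1b, an adrenergic receptor, had 8.80, 8.12, 11.2 and 6.78 RPM in DEN fibers, against 17.5, 16.9, 19.4 and 17.0 RPM in DEN whole muscle (log2 fold change -1.07 ± 0.11, adjusted p = 2.7e-05). All DEN fibers were below all DEN whole muscles in these genes. Their sham log2 fold changes were 1.66 and 1.62 (adjusted p = 0.00066 and 0.010).

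**Figure D5:**
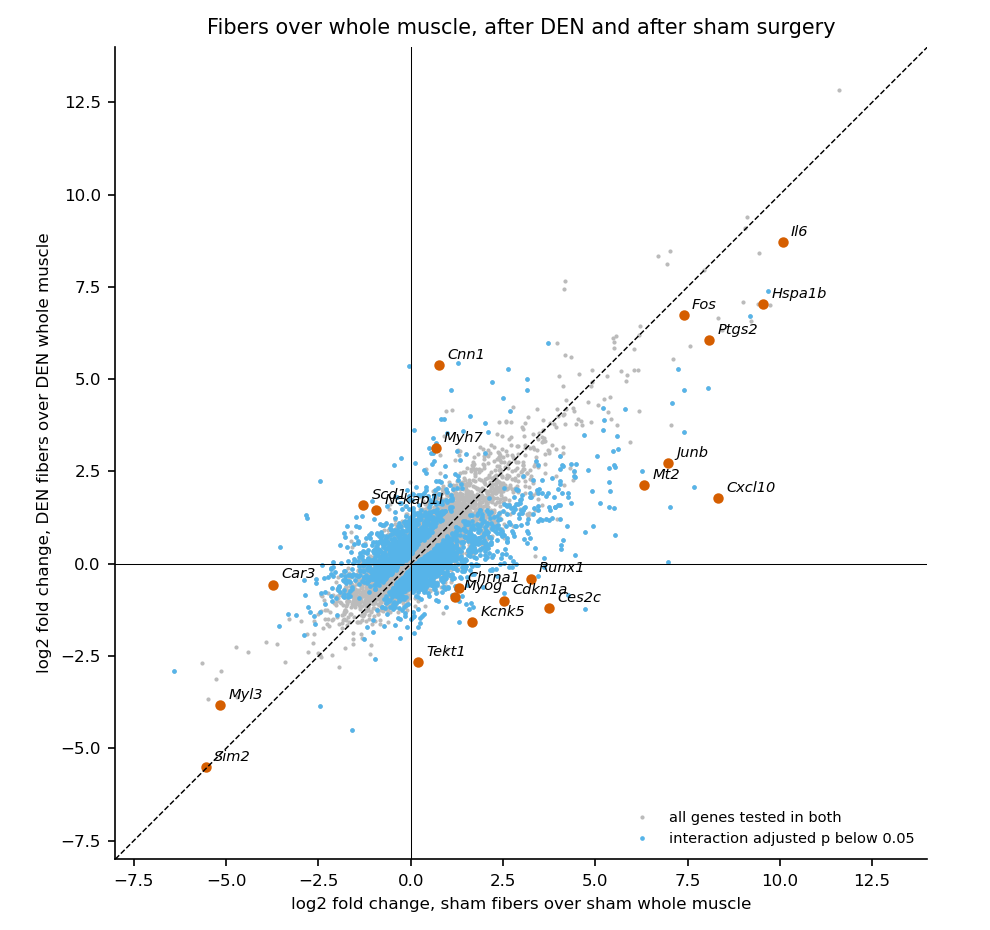
Log2 fold change of fibers over whole muscle after DEN (vertical axis) against that after sham (horizontal axis) for the 15662 genes tested in both, each point 1 gene, with the dashed line of equal values, genes with an interaction past the threshold in blue and named genes in orange. Runx1, Cdkn1a and Ces2c lie at negative DEN and positive sham values, and Sim2 lies on the dashed line (-5.50 after DEN and -5.56 after sham).

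Secreted factors named by the study, a list chosen with these samples in view and so no independent evidence of its direction, had 2 of 5 tested genes higher and 2 lower, and 1 lower when all 16 libraries shared 1 fit. In the main fit these are 40% each, against 30.2% higher and 26.4% lower over all genes. S100a8, given above with the neutrophil genes, and Ostn (osteocrin), a muscle-secreted peptide, were higher. Ostn had 17.5, 12.2, 16.8 and 17.3 RPM in DEN fibers, against 3.73, 3.50, 3.73 and 6.17 RPM in DEN whole muscle (log2 fold change 1.86 ± 0.19, adjusted p = 2.5e-05), with its lowest fiber library, DEN fibers 2, still above every whole muscle. Spp1 (osteopontin), a matrix-bound cytokine, had 26.5, 34.1, 35.8 and 22.02 RPM in DEN fibers, against 51.2, 42.7, 36.2 and 44.1 RPM in DEN whole muscle (log2 fold change -0.60 ± 0.14, adjusted p = 0.0041), with the highest fibers just under the lowest whole muscle, and it lost its call when all 16 libraries shared 1 fit (-0.64, adjusted p = 0.12). Tgfb1, a cytokine that stimulates matrix synthesis, had 30.97, 30.7, 31.9 and 25.2 RPM in DEN fibers, against 45.9, 49.9, 46.5 and 45.3 RPM in DEN whole muscle (log2 fold change -0.71 ± 0.06, adjusted p = 6.5e-06), well apart. Chrd (chordin), an antagonist of bone morphogenetic proteins, had 21.8, 24.9, 25.6 and 17.8 RPM in DEN fibers, against 18.6, 22.9, 26.6 and 20.4 RPM in DEN whole muscle, with complete overlap (log2 fold change -0.03 ± 0.12, adjusted p = 0.88).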

How the data were processed

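RNA from 16 mouse muscle samples was sequenced (polyA selection, directional libraries, 1 read end). Per the labels and methods, the authors demultiplexed with bcl2fastq 2.20.0.422, trimmed with cutadapt 2.1, aligned to GRCm38 with TopHat2 2.1.0 and obtained whole-number counts with featureCounts 1.6.5. For the deposited RPM the authors scaled these counts to a fixed library total, and the deposited RPKM values also divide by a gene length. Of 55487 genes, those passing filterByExpr (minimum count 10) entered edgeR 4.0.16 (R 4.3.3), which took the counts as deposited: TMM scaling, quasi-likelihood F-test, Benjamini-Hochberg adjustment over all tested genes at 0.05. The DEN and the sham contrast each used the 8 libraries of their 2 groups, whereas the interaction used all 16. Standard errors are the size of the log2 fold change divided by the square root of F. Myosin shares were compared with exact permutation tests on RPKM. The script was tested on simulated data. No pair of replicates was as alike as counting noise allows (lowest mean chi-square per gene 13.2, where 1 is noise alone). Depth of 47570214 to 62297405 counts limits precision for genes of few counts only.

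The groups, 34 gene lists (669 genes) and tests were chosen with earlier results of these data known. Genes named were a fixed set; of each list up to 4 called members with the largest changes, at least 1 RPM and no overlap; the 12 largest changes in each direction at 10 RPM or more; and the 6 largest interactions and opposite calls in each direction. Not all are printed, and 2 genes (Malat1, Neat1) were chosen after their values were seen. Where a symbol had several identifiers, the one with most counts was used (234 identifiers shared a symbol). Promoter sequences are the RefSeq windows of GRCm38.p6, searched over 250 bases before the start on both strands. Alternatives were DESeq2 1.42.0 and its size factors, total counts, no filter, a minimum count of 50, 1 fit of all 16 libraries, the replicate number as a block, each library left out in turn, and, added after the data were seen, a gene length offset (loess span 0.3).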

Additional observations from a re-analysis of the deposited data

Results flagged for a closer look

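In 21 of 298 pairs of a gene and a DEN group, the highest or the lowest of the 4 libraries stood apart from the other 3 by more than Dixon's 95% limit, a test that chance passes in about 1 of 20 groups. Among DEN fibers, library 3 was high for Pdgfra (37.6 RPM), Cdh19 (16.5 RPM) and Ngfr (25.1 RPM), and low for Mybpc2 (273 RPM). Library 2 was low for Ostn (12.2 RPM) and Lcn2 (1.596 RPM), and high for Myl2 (18.9 RPM) and Hk2 (1096 RPM). Library 1 was high for Il6 (84.3 RPM), and library 4 for Irf9 (18.1 RPM). Among DEN whole muscle, library 4 was high for Ostn (6.17 RPM), Hspa1b (16.4 RPM), Socs3 (33.1 RPM), Irf1 (34.3 RPM) and Irf9 (10.8 RPM), and low for Car3 (6823 RPM). Library 2 was low for Acvr2b (0.836 RPM), and high for Psmd3 (221 RPM) and Mtss2 (322 RPM). Library 3 was high for Chrng (103 RPM) and Fosb (2.65 RPM).

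For 69 of the 149 genes printed, the difference between fibers and whole muscle itself differed between DEN and sham by the interaction test of edgeR (adjusted p below 0.05 over 17497 genes), and each value in brackets here is the log2 interaction, positive where the difference of fibers over whole muscle was higher after DEN. Positive values in genes of vessels and smooth muscle were those of Cnn1 (4.57), Tagln (2.55), Myh11 (2.51), Vwf (1.596), Mylk (1.52), Notch3 (1.32), Cspg4 (1.19), Ptprb (0.76), Egfl7 (0.72), Pecam1 (0.58) and Gucy1a1 (1.31). In genes of the fiber, its junction, satellite cells, Schwann cells and matrix, the interaction was positive for Myh7 (2.40), Myh3 (1.86), Sntb1 (2.15), Ostn (1.601), Pax7 (1.17), Agrn (0.82), Ngfr (1.88) and Col18a1 (1.13). It was also positive for Car3 (3.10), Scd1 (2.81), Nckap1l (2.35), Adamts8 (1.86), Zfp385a (1.67) and Neat1 (0.86). Negative values in stimulus-responsive genes were those of Cxcl10 (-6.60), Junb (-4.31), Mt2 (-4.25), Egr3 (-3.91), Otud1 (-3.88), Atf3 (-3.88), Mt1 (-3.21), Egr2 (-2.78), Hspa1b (-2.56), Hspa1a (-2.52), Hsp90aa1 (-2.50), Fosb (-2.34), Hmox1 (-2.14), Dnajb1 (-2.01), Hes1 (-1.68) and Ciart (-3.55). In regulators and genes that respond to denervation the interaction was negative for Runx1 (-3.69), Cdkn1a (-3.57), Myog (-2.15), Chrna1 (-2.02), Myod1 (-2.02), Klf5 (-1.98), Krt18 (-2.01), Actc1 (-2.94), Xirp1 (-1.90) and Tgfb1 (-1.14). In the fast sarcomere and the basic machinery of the cell it was negative for Mybpc2 (-1.28), Myom2 (-0.77), Myh4 (-0.67), Cacng1 (-0.51), Psmd3 (-0.46), Psmc5 (-0.39), Psmd2 (-0.30) and Rps9 (-0.28). The remaining negative values were those of Ces2c (-5.00), Kcnk5 (-3.32), Igfbp2 (-3.29), Tekt1 (-2.91), Mbp (-2.85), Adra1b (-2.74), Aldh3a1 (-2.02), Micall2 (-1.96), Dupd1 (-1.76) and Mtss2 (-0.81).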

How the results depend on the processing

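Of the values of 149 genes under 16 alternatives, 2357 kept their direction and their side of the threshold, 13 lost the call, 6 gained it and 4 reversed. Chrd, never called, was 0.025 with total counts, and -0.11 to 0.077 with a library left out (positive without DEN whole muscle 3 or DEN fibers 4). Col1a1, also never called, was -0.46 to 0.14 with a library left out (positive without DEN whole muscle 2 only). With all 16 libraries in 1 fit, Myh2 (0.63), Spp1 (-0.64), Cd68 (0.40), mt-Atp8 (0.26) and Adamts8 (0.80) lost their calls, and with the length offset Myh8 was lower in DEN fibers (-0.58) and Gucy1a1 lost its call (0.57). Of the counts of list members, 1016 stayed within 1.5 times and 72 did not, mostly counts of 5 or fewer. The cause was not tested.

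Calls in the main comparison numbered 8433 with a minimum count of 50, 10059 without a filter, 9376 with DESeq2 and 8882 to 9296 with a library left out. Negative interactions numbered 2066, against 1173 with total counts, 1227 without a filter and 1317 to 1722 with a DEN library left out (positive: 1488, 1312 and 1116 to 1359). The Myh1 share differed by -3.62 to -1.67 percentage points with a library left out, and passed the exact test without DEN fibers 2 only.

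Same-numbered DEN libraries of fibers and whole muscle share a number and no stated animal, and their deviations correlated at 0.18, -0.04, 0.00 and 0.31 over genes for replicates 1 to 4, so the numbers were not taken as pairs. Replicates 1 and 4 correlated best with their own number, and 2 and 3 did not. With the replicate number as a block 9392 genes were called in the main comparison, 8031 in the sham comparison and 3301 in the interaction, Chrng passed the test (-0.40, adjusted p = 0.0059), and 11 interferon genes were higher and 6 lower.

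Differences in genes of a few counts, such as Csf3 and Cxcl2 in whole muscle, are bounds or rest on single reads.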

Other observations

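Genes of the interferon response, through which cells answer viral and other signals, were not described above. Of 28 tested 5 were higher and 2 lower in DEN fibers (median log2 fold change 0.01), against 30.2% higher and 26.4% lower over all genes. With the replicate number as a block 11 were higher and 6 lower. Irf1, a transcription factor induced by interferon gamma, had 63.5, 69.4, 83.2 and 102 RPM in DEN fibers, against 9.77, 9.94, 8.51 and 34.3 RPM in DEN whole muscle (log2 fold change 2.31 ± 0.43, adjusted p = 0.0011). Isg15, a ubiquitin-like protein, had 5.04, 4.61, 5.03 and 6.35 RPM in DEN fibers, against 1.33, 1.24, 1.92 and 3.91 RPM in DEN whole muscle (log2 fold change 1.29 ± 0.33, adjusted p = 0.0072). Irf9, which carries the interferon signal to DNA, had 13.04, 12.2, 12.5 and 18.1 RPM in DEN fibers, against 5.92, 6.19, 5.87 and 10.8 RPM in DEN whole muscle (log2 fold change 0.92 ± 0.22, adjusted p = 0.0054). In each gene replicate 4 was the highest library of both groups, and still no whole muscle reached a fiber. Over the list replicate 4 was highest for 24 of 28 genes in DEN fibers and for 27 of 28 in DEN whole muscle, and the summed level was 326, 315, 374 and 628 RPM in DEN fibers, against 235, 230.3, 229 and 573 RPM in DEN whole muscle. The count of higher genes was 8 without DEN whole muscle 4 and 3 without DEN fibers 4, DEN whole muscle 2 or DEN whole muscle 3. The labels do not say what the same number shares.

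Other genes of the lists also differed without overlap, as the rule for naming them required. Egr2, an early response gene that also drives myelination, had 22.3, 23.1, 28.1 and 18.96 RPM in DEN fibers, against 0.880, 0.675, 1.62 and 1.22 RPM in DEN whole muscle (log2 fold change 4.36 ± 0.22, adjusted p = 2.4e-07), and its sham log2 fold change was 7.09 (interaction -2.78, adjusted p = 0.00018). Ptprb, an endothelial phosphatase, had 132, 80.8, 139 and 106 RPM in DEN fibers, against 42.7, 44.1, 40.9 and 37.7 RPM in DEN whole muscle (log2 fold change 1.42 ± 0.14, adjusted p = 1.5e-05; 0.86 with the length trend taken out). Col8a1, a short-chain collagen of vessel walls, averaged 23.4 ± 4.34 RPM in DEN fibers and 5.92 ± 1.08 RPM in DEN whole muscle, and Col18a1, the collagen that holds endostatin, 44.7 ± 15.9 RPM in DEN fibers and 12.3 ± 3.56 RPM in DEN whole muscle (SD, n = 4 each). Plin4, a lipid droplet protein found in muscle as well as fat, averaged 77.5 ± 16.6 RPM in DEN fibers and 53.1 ± 4.55 RPM in DEN whole muscle and was the gene of the adipocyte list that was higher in DEN fibers (log2 fold change 0.51 ± 0.15, adjusted p = 0.014), although its libraries did not separate as widely as those of the other genes here.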
